A study of Mus musculus with 6 samples.

Results

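The PI3K, AKT and mTOR pathway is described here through 9 genes: Pik3cd, Pik3r1, Pik3ip1, Akt1, Mtor, Rptor, Tsc1, Tsc2 and Rheb. They were chosen by gene name, and each matched 1 of the 54446 gene identifiers in the 6 deposited files. A gene's level was its FPKM (fragments scaled to transcript length and to the mapped total) summed over its annotated transcripts. RNA was sequenced from CD8+ T cells of the spleens of wild type C57BL/6 mice aged 8 weeks, with 2 libraries in each of 3 groups. Unstimulated cells were fresh cells. Control cells spent 72 h on plates coated with antibodies to CD3 and CD28, without magnets, and SMF-treated cells had the same stimulation and time on permanent magnets with a static magnetic field (SMF) of 0.3 T. The cells of every group had been enriched with a negative selection kit. The labels do not say whether the libraries of a group came from separate mice, so p-values measure only the spread between these libraries, which may be technical.

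The antigen receptor and CD28 activate class I PI3K, which in lymphocytes pairs the catalytic subunit p110 delta (Pik3cd) with a regulatory subunit such as p85 alpha (Pik3r1), and the membrane protein PIK3IP1 restrains it. The lipid that PI3K makes recruits the kinase AKT, and AKT phosphorylates TSC2 and so releases the small GTPase RHEB, which switches on mTOR complex 1, the kinase mTOR with its partner raptor (Rptor). In CD8+ T cells the pathway is known for driving growth, glycolysis and effector differentiation, and much of its control acts on proteins and their phosphorylation, which RNA levels do not measure.

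The depth of the libraries, as read bases over annotated transcripts, was lowest in control replicate 1 (64.4 Mb) and highest in SMF replicate 1 (259 Mb). Unstimulated and control replicate 1 share a folder date in the file headers, replicate 2 of both shares another, and both SMF libraries carry one that no other library has, so the SMF comparisons and that date cannot be told apart. The 5 CD8 and CD3 genes checked summed to between 271 and 748 FPKM in all 6 libraries. Of the B cell genes, Cd79a was at 57.2 and 44.8 FPKM in unstimulated cells and between 1.85 and 13.5 FPKM after stimulation, Cd79b at 32.5 and 28.1 FPKM and then between 0 and 8.97 FPKM, and Ms4a1 at 13.8 and 10.1 FPKM and then between 0 and 0.86 FPKM. The 4 myeloid markers measured (Lyz2, Csf1r, Itgam, Adgre1) summed to 131 and 144 FPKM in unstimulated cells and to between 41.1 and 53.8 FPKM afterwards, when Csf1r made up nearly all of the sum and Lyz2 and Adgre1 were listed at 0 in all 4 libraries. The part of these other cells in the falls from unstimulated cells given below was not tested, and in such bulk samples fewer cells of a type and less RNA per cell cannot be told apart.

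Among the 9 genes, only the restraint on PI3K was called lower in both stimulated groups by sums over all transcripts. Pik3ip1 was at 43.0 and 33.0 FPKM in unstimulated cells, 15.0 and 15.2 FPKM in control cells, and 5.49 and 8.03 FPKM in SMF-treated cells. Its call in control cells ended on full-length coding transcripts and without its last exon. Akt1 and Mtor rose from unstimulated to SMF-treated cells, by log2 fold changes of 1.16 and 1.56, and with each library shifted to one median these were 0.91 and 1.31 and no longer called. Tsc2 was called lower in control cells, through 1 exon described below, and its sums were also lower in SMF-treated than in unstimulated cells, without a call. Pik3cd was nearly level between unstimulated and SMF-treated cells and lower in control cells by less than the threshold of 2-fold.

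A gene was called where it changed 2-fold or more with an unadjusted p no higher than 0.05, by limma on log2(FPKM + 1) over the 14991 genes that averaged 1 FPKM or more. All 9 genes passed that filter. Against unstimulated cells, 0 of the 9 rose and 2 fell in control cells, where 12.3% of all genes tested rose and 12.6% fell. In SMF-treated cells 2 rose and 1 fell, where 22.4% of all genes rose and 14.8% fell. Between SMF-treated and control cells 1 was higher and 1 lower, where 12.5% of all genes were higher and 5.72% lower. With shares of this size among all genes, counts this small say little about the 9 genes as a list.

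With a Benjamini-Hochberg adjusted p under 0.05 and no fold limit, the limma calls were 1 fall in control cells (Tsc2) and 1 fall in SMF-treated cells (Pik3ip1), each against unstimulated cells. Over all genes, 4.52% rose and 3.96% fell in control cells by that rule, and 14.2% rose and 9.40% fell in SMF-treated cells. Between SMF-treated and control cells 0 of the 9 passed it, 3 had an unadjusted p no higher than 0.05 (Pik3cd, Pik3ip1 and Tsc2), and only 0.0200% of all genes were higher and 0.00667% lower. In that comparison 6 of the 9 had both SMF libraries above both control libraries and 1 had both below, shares to be read beside 37.4% and 17.4% of all genes tested. The median log2 fold change of the 9 was -0.48 for control and -0.01 for SMF-treated over unstimulated cells, and 0.85 for SMF-treated over control cells. The same medians over all genes were -0.05, 0.27 and 0.32. Over the 10042 protein-coding genes with several exons among them, the medians were 0.01, 0.62 and 0.58. Because the shift of 0.32 over all genes was over 0.1, some values of SMF-treated cells are also given below relative to the median of all genes. Where this is not stated, the median has not been taken off. With each library shifted to one median, the calls of Akt1 and Mtor in SMF-treated cells and of Tsc2 between the stimulated groups ended, Tsc2 was called lower in SMF-treated than in unstimulated cells, and the 3 calls of Pik3ip1 held.

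**Figure D1:**
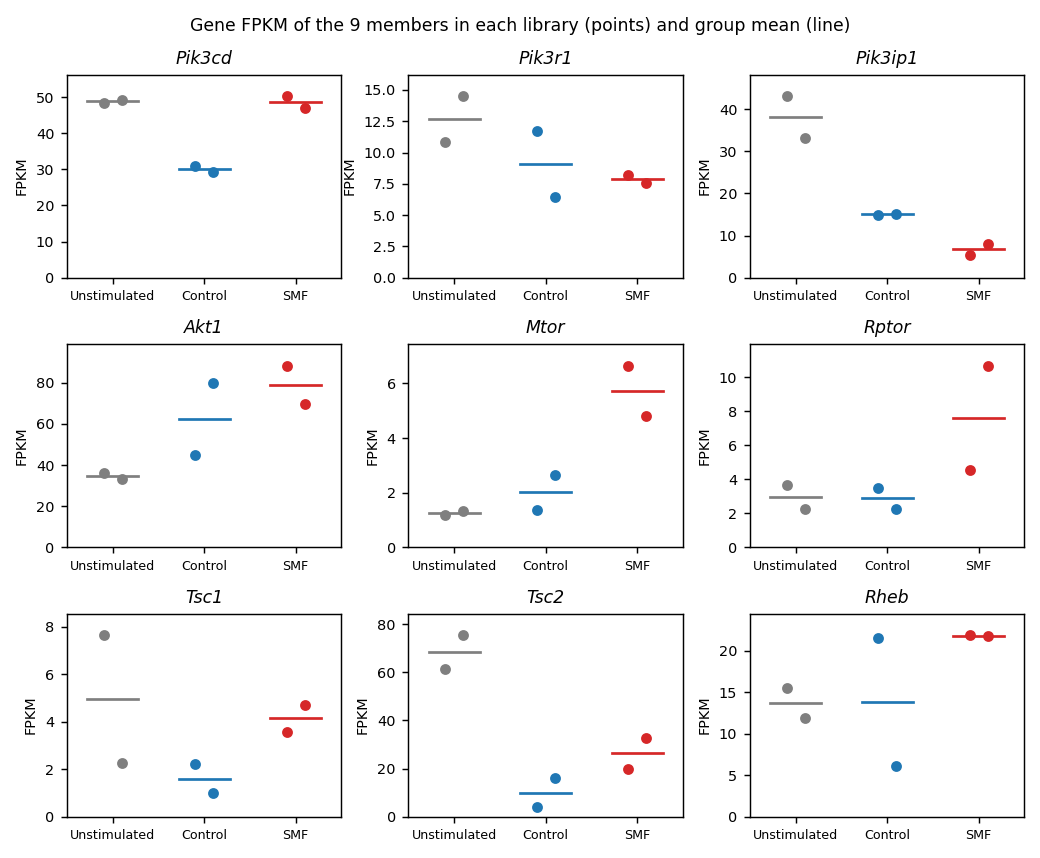
FPKM of each of the 9 genes (vertical axis, from 0, with its own range per gene) in the 2 unstimulated, 2 control and 2 SMF libraries. Points are libraries, with replicate 1 on the left, and lines are group means; Pik3ip1 steps down from unstimulated to control to SMF-treated cells without overlap, while the 2 control libraries of Rheb lie at 21.6 and 6.14 FPKM.

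**Figure D2:**
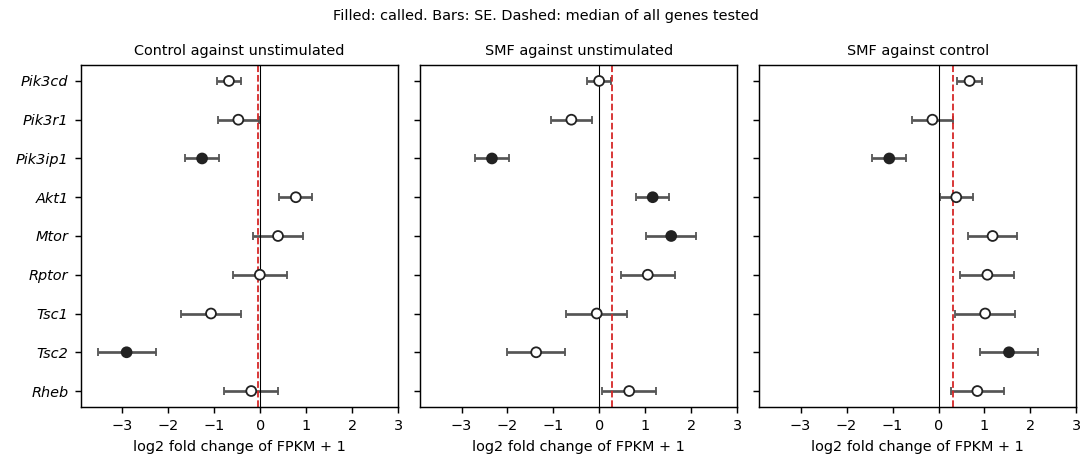
Log2 fold change of FPKM + 1 (horizontal axis) of the 9 genes in the 3 comparisons, with SE as bars. Filled points passed the 2-fold and p thresholds, and the dashed line is the median of all 14991 genes tested; Pik3ip1 is the gene with a filled point in every panel.

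The catalytic subunit gene Pik3cd (chromosome 4, 149649168 to 149702571, minus strand, GRCm38) was the most even of the 9 between replicates. It was at 48.4 and 49.3 FPKM in unstimulated cells, 31.0 and 29.1 FPKM in control cells, and 50.2 and 47.0 FPKM in SMF-treated cells. Both control libraries lay below the other 4, and unstimulated and SMF-treated libraries overlapped. The log2 fold change of control against unstimulated cells was -0.68 (SE 0.27, limma adjusted p = 0.168), and it was -0.63 within replicate 1 and -0.74 within replicate 2. SMF-treated cells stood 1.6-fold above control cells (log2 fold change 0.68, SE 0.27, limma unadjusted p = 0.0433, adjusted p = 0.228), of which 0.36 remained above the median of all genes. The median over protein-coding genes with several exons was itself 0.58 in that comparison. Against unstimulated cells the SMF difference was -0.01 (SE 0.27, adjusted p = 0.996).

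The reads of Pik3cd were shared among transcripts that differ little. Pik3cd-201, of 4905 bases, held 87.8% of the gene's FPKM in unstimulated replicate 1, 84.8% in SMF replicate 2 and 91.1% in control replicate 1. Pik3cd-204, of 4921 bases, held 89.8% in unstimulated replicate 2 and 82.5% in SMF replicate 1, and Pik3cd-214 held 76.3% in control replicate 2. The leading transcript thus went with no group, and the sum over transcripts is the value to read. Nearly all 24 exons of Pik3cd-204 carried reads in every library, 23 in control replicate 1 and 24 in the other 5. Its first exon was near empty, at most 8.11 on the FPKM scale, beside 25.3 to 48.3 in its second exon.

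Pik3r1, for the regulatory subunit p85 alpha (chromosome 13, 101680563 to 101768217, minus strand), was lower than Pik3cd throughout. It was at 10.8 and 14.5 FPKM in unstimulated cells, 11.8 and 6.42 FPKM in control cells, and 8.18 and 7.57 FPKM in SMF-treated cells. Both SMF libraries lay below both unstimulated libraries, and the control libraries, one within the unstimulated range and one below both SMF libraries, overlapped with both groups. The log2 fold change was -0.48 in control cells (SE 0.45, limma adjusted p = 0.534) and -0.61 in SMF-treated cells (SE 0.45, adjusted p = 0.349) against unstimulated cells, and none of the 3 comparisons passed the threshold. The transcript of 7113 bases, Pik3r1-202, held between 79.2% and 100% of the gene's FPKM, and the shorter coding transcript Pik3r1-201 was listed at 0 in all 6 libraries. Within a library, the log2 ratio of Pik3cd to Pik3r1 was 2.16 and 1.77 in unstimulated, 1.40 and 2.18 in control, and 2.62 and 2.63 in SMF-treated cells, so both SMF libraries lay above the other 4.

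Pik3ip1 (chromosome 11, 3330401 to 3342971, plus strand) encodes a membrane protein that binds PI3K and holds it back in T cells. The 3 groups did not overlap: its highest SMF library, at 8.03 FPKM, lay below its lowest control library, at 15.0 FPKM, which lay below its lowest unstimulated library, at 33.0 FPKM. Control cells were 2.41-fold below unstimulated cells (log2 fold change -1.27, SE 0.37, limma adjusted p = 0.0882), with -1.46 within replicate 1 and -1.07 within replicate 2. SMF-treated cells were 5.06-fold below unstimulated cells (-2.34, SE 0.37, adjusted p = 0.0106). Between SMF-treated and control cells the fall was 2.1-fold (-1.07, SE 0.37, unadjusted p = 0.0261, adjusted p = 0.195), or -1.39 relative to the median of all genes. The other 2 calls held without any 1 library. Leaving out control replicate 1, control replicate 2 or SMF replicate 1 ended that last call, with log2 fold changes of -1.08, -1.06 and -0.83.

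The fall of Pik3ip1 in control cells depended on which of its reads were counted. On full-length coding transcripts it was 1.83-fold and not called (limma adjusted p = 0.241). The last exon, of 1449 bases, held between 62.4% and 88.8% of the read bases along Pik3ip1-201. Without it the level was 21.5 and 7.89 in unstimulated cells, 12.9 and 7.10 in control cells, and 1.05 and 2.12 in SMF-treated cells, on the FPKM scale. Unstimulated and control libraries then overlapped (log2 fold change -0.41, SE 0.63, limma adjusted p = 0.732), and SMF-treated cells remained below both, by 5.58-fold against unstimulated (adjusted p = 0.0296) and 4.2-fold against control cells (adjusted p = 0.147). Depth was thin here, with 3234 to 10103 read bases over the gene per library. The first exon shares 91 of its 604 bases, 15.1%, with the gene Gm12592 on the opposite strand, which was itself at 79.1 and 83.8 FPKM in unstimulated, 61.7 and 48.3 FPKM in control, and 38.6 and 37.9 FPKM in SMF-treated cells. The libraries were counted by strand.

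The promoter of Pik3ip1 is shown because the gene was called in all 3 comparisons. It is the RefSeq window from 250 bases before to 50 bases after the annotated start (GRCm38.p6, chr11:3330481-3330780, plus strand), read from 5′ to 3′, and lies within the first exon of the annotation that the files use. Capitals would mark the E-box CACGTG, a core that MYC and TFEB family factors bind, or the forkhead core GTAAACA, which FOXO factors bind, on either strand, and the window holds neither.
Pik3ip1: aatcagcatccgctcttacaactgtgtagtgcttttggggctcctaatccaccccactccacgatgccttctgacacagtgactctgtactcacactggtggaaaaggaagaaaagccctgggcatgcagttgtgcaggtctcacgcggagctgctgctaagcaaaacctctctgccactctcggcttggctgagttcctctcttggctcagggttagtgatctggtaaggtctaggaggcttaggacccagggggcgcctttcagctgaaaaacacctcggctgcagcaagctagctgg
Of 32851 such windows, each of 300 bases, 7.15% hold CACGTG and 3.65% hold GTAAACA on either strand.

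Akt1 (chromosome 12, 112653821 to 112674884, minus strand), the main AKT kinase of most cells, had the highest mean level of the 9 genes. It was at 36.1 and 33.1 FPKM in unstimulated cells, 44.8 and 79.7 FPKM in control cells, and 88.3 and 69.8 FPKM in SMF-treated cells. Every stimulated library lay above both unstimulated libraries, and control and SMF-treated libraries overlapped. The rise in SMF-treated cells was 2.23-fold (log2 fold change 1.16, SE 0.36, limma unadjusted p = 0.0166, adjusted p = 0.0618). That was 0.89 above the median of all genes, and the median over protein-coding genes with several exons was itself 0.62. Without unstimulated replicate 1, unstimulated replicate 2 or SMF replicate 1 that call ended, with log2 fold changes of 1.22, 1.10 and 0.99. Control cells gave 0.77 (SE 0.36, adjusted p = 0.233), with 0.30 within replicate 1 and 1.24 within replicate 2, and SMF-treated against control cells gave 0.39 (SE 0.36, adjusted p = 0.554).

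Part of the sum for Akt1 came from short transcripts that do not span the coding region. In control replicate 2, Akt1-206, of 736 bases, held 40.8% of the gene's FPKM and was listed at 0 elsewhere, and in SMF replicate 1 Akt1-208, of 862 bases, held 57.1%. The full-length coding transcripts alone were at 22.0 and 20.8 FPKM in unstimulated, 25.3 and 16.6 FPKM in control, and 28.7 and 48.6 FPKM in SMF-treated cells. Both SMF libraries remained highest, but the fold change against unstimulated cells was 1.72 and no longer passed the threshold (log2 fold change 0.78, SE 0.38, limma adjusted p = 0.178). Summed over exons instead, the exon with the most read bases on average (exon 3) was left out. The level was then 19.7 and 18.5 in unstimulated, 26.6 and 28 in control, and 40.2 and 45.9 in SMF-treated cells, with no overlap between groups. That gave a rise in SMF-treated cells of 2.19-fold (SE 0.29 on the log2 scale, limma adjusted p = 0.0289), of which 0.12 on the log2 scale lay above the median of all genes measured in this way.

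Mtor (chromosome 4, 148448611 to 148557683, plus strand), the kinase itself, had the lowest mean level of the 9 genes. It was at 1.19 and 1.34 FPKM in unstimulated cells, 1.38 and 2.66 FPKM in control cells, and 6.65 and 4.82 FPKM in SMF-treated cells. Both SMF libraries lay above the other 4, and every control library lay above both unstimulated libraries. The rise in SMF-treated against unstimulated cells was 2.95-fold (log2 fold change 1.56, SE 0.54, limma unadjusted p = 0.0267, adjusted p = 0.0836). It was taken on the log2(FPKM + 1) scale, which understates the change of so low a gene. This rise was 1.29 above the median of all genes, and the median over protein-coding genes with several exons was itself 0.62. Leaving out 1 SMF library or unstimulated replicate 1 took the unadjusted p of that rise above 0.05, to between 0.0532 and 0.1. Against control cells the value was 1.18 (SE 0.54, unadjusted p = 0.0709, adjusted p = 0.275), and control against unstimulated cells gave 0.38 (SE 0.54, adjusted p = 0.694).

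Few reads stand behind the low values of Mtor. The gene received 916 and 1992 read bases in unstimulated, 991 and 4513 in control, and 13927 and 11294 in SMF-treated cells, over a transcript of 8564 bases. Of its 58 exons, 7 and 16 carried reads in unstimulated, 7 and 27 in control, and 32 and 38 in SMF-treated cells. Over 9500 tested genes with at least 3 exons, the median share of exons with reads was 40% and 65.7% in unstimulated, 38.9% and 80% in control, and 87.5% and 86.7% in SMF-treated cells, and Mtor lay under it in all 6 libraries. Its breadth thus moved with the depth of the libraries, and the part of depth in its rise was not tested. The transcript Mtor-202 held all of the FPKM in 4 libraries, 76.9% in SMF replicate 1 and 88.2% in control replicate 2.

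Rptor, for raptor, the subunit that brings substrates to mTOR complex 1 (chromosome 11, 119602905 to 119899576, plus strand), was at 3.64 and 2.22 FPKM in unstimulated, 3.51 and 2.27 FPKM in control, and 4.51 and 10.7 FPKM in SMF-treated cells. Both SMF libraries lay above the other 4, whose groups overlapped. The log2 fold change was 1.05 against unstimulated cells (SE 0.58, limma adjusted p = 0.236) and 1.06 against control cells (SE 0.58, adjusted p = 0.345), and neither passed. The value of 10.7 FPKM in SMF replicate 2 held 3.08 and 3.12 FPKM of a pair of transcripts with retained introns. The full-length coding transcript alone was at 4.51 and 4.14 FPKM in SMF-treated cells, beside 2.11 and 2.15 FPKM in unstimulated and 3.51 and 2.13 FPKM in control cells. The log2 ratio of Rptor to Mtor was 1.62 and 0.73 in unstimulated, 1.35 and -0.23 in control, and -0.56 and 1.15 in SMF-treated cells, with every pair of groups overlapping.

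Tsc1 and Tsc2 encode hamartin and tuberin, the complex that keeps RHEB off. Tsc1 (chromosome 2, 28641228 to 28691167, plus strand) was at 7.65 and 2.28 FPKM in unstimulated, 2.22 and 0.99 FPKM in control, and 3.56 and 4.73 FPKM in SMF-treated cells. The unstimulated libraries spanned both SMF libraries, and both control libraries lay below the other 4. None of its 3 comparisons passed: the log2 fold change was -1.07 in control against unstimulated cells (SE 0.66, limma adjusted p = 0.358), -0.06 in SMF-treated against unstimulated cells (SE 0.66, adjusted p = 0.963) and 1.02 in SMF-treated against control cells (SE 0.66, adjusted p = 0.412). Its last exon, of 4514 bases, held 87% to 93.5% of the read bases in the 4 libraries without magnets and 50.4% and 53.1% in the SMF libraries, where 14 and 18 of its 23 exons carried reads against 2 to 6 in the others.

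Tsc2 (chromosome 17, 24595816 to 24632630, minus strand) was at 61.2 and 75.3 FPKM in unstimulated, 3.89 and 16.2 FPKM in control, and 20.0 and 32.6 FPKM in SMF-treated cells. The 3 groups did not overlap, with control cells lowest. By these sums it fell 7.51-fold in control cells (log2 fold change -2.91, SE 0.63, limma adjusted p = 0.044), with -3.67 within replicate 1 and -2.15 within replicate 2. SMF-treated cells were 2.89-fold above control cells (1.53, SE 0.63, unadjusted p = 0.0498, adjusted p = 0.237), a call that ended whenever any library other than control replicate 2 was left out, with 0.62 without control replicate 1. The call in control cells ended without unstimulated replicate 2 (-2.76). SMF-treated against unstimulated cells gave -1.38 (SE 0.63, adjusted p = 0.162).

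One exon set these values. The last exon of the main coding transcript of Tsc2 (exon 41, 951 bases, at 24595816 to 24596766) stood at 385 and 428 on the FPKM scale in unstimulated, 0.32 and 43.5 in control, and 67.3 and 45.4 in SMF-treated cells. It held 96% and 95.6% of the read bases along the transcript in unstimulated cells, 1.68% and 76% in control cells, and 73.6% and 55.5% in SMF-treated cells. Of its bases, 693, or 72.9%, lie opposite exons of Pkd1, the neighbouring gene on the plus strand, which was at 4.79 and 5.98 FPKM in unstimulated, 2.48 and 0.85 FPKM in control, and 2.06 and 1.48 FPKM in SMF-treated cells. Among the 9500 genes with at least 3 exons, 49.6% had over 50% of their read bases in 1 exon, and the median share of that exon was 49.8%.

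Without exon 41, Tsc2 was a gene of low and similar level in every group. It was then at 2.86 and 3.5 in unstimulated, 3.33 and 2.46 in control, and 4.31 and 6.52 in SMF-treated cells, on the FPKM scale. Unstimulated and control libraries overlapped, and both SMF libraries lay above the other 4. The log2 fold change became -0.11 in control cells (SE 0.54, limma adjusted p = 0.933), 0.60 in SMF-treated cells against unstimulated cells (SE 0.54, adjusted p = 0.424) and 0.71 in SMF-treated against control cells (SE 0.54, adjusted p = 0.422). The SMF difference from unstimulated cells thus changed its sign, and no comparison of Tsc2 passed. Along the other 40 exons the highest level in any library was 32.5.

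**Figure D3:**
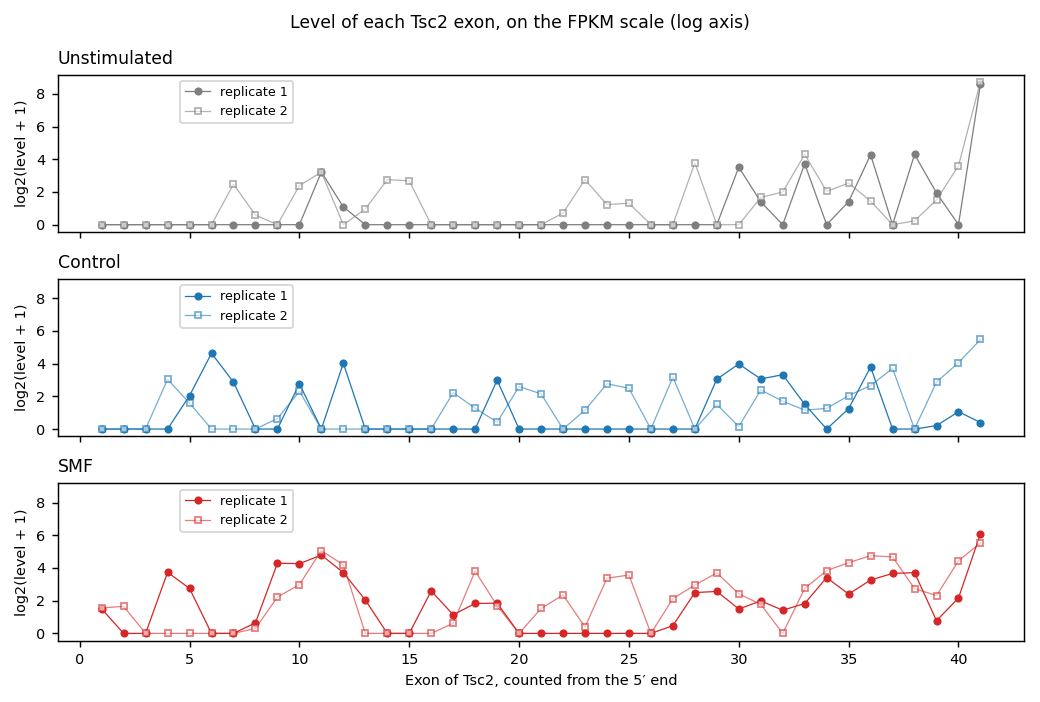
Level of each of the 41 exons of Tsc2 (horizontal axis, from the 5′ end) in the 2 libraries of each group, as log2 of the level on the FPKM scale plus 1 (a log axis). Filled circles are replicate 1 and open squares replicate 2; exon 41 stands far above the rest in both unstimulated libraries, at 385 and 428, and at 0.32 in control replicate 1.

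The ratios that use Tsc2 carried the same exon. The log2 ratio of Tsc1 to Tsc2 was -3 and -5.05 in unstimulated, -0.81 and -4.03 in control, and -2.49 and -2.79 in SMF-treated cells, and that of Rheb to Tsc2 was -1.98 and -2.67 in unstimulated, 2.47 and -1.4 in control, and 0.13 and -0.58 in SMF-treated cells. The control libraries spanned the SMF libraries in both ratios. The log2 ratio of Pik3cd to its restraint Pik3ip1 kept the 3 groups apart by sums over all transcripts. It was at 0.17 and 0.58 in unstimulated, 1.05 and 0.94 in control, and 3.19 and 2.55 in SMF-treated cells. Its mean was 2.5 higher in SMF-treated than in unstimulated cells and 1.88 higher than in control cells, with no test run on the ratio. On full-length coding transcripts, and without the highest exon of each gene, unstimulated and control libraries overlapped in this ratio. Both SMF libraries still lay above the rest in these forms.

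Rheb (chromosome 5, 24802823 to 24842624, minus strand), the GTPase that switches on mTOR complex 1, was at 15.5 and 11.9 FPKM in unstimulated, 21.6 and 6.14 FPKM in control, and 21.9 and 21.7 FPKM in SMF-treated cells. The control libraries spanned the unstimulated ones, and both SMF libraries lay above the other 4 by little over control replicate 1. No comparison passed: the log2 fold change was -0.20 (SE 0.58, limma adjusted p = 0.866) in control and 0.65 (SE 0.58, adjusted p = 0.445) in SMF-treated cells against unstimulated cells, and 0.85 (SE 0.58, adjusted p = 0.438) between the stimulated groups. Without control replicate 1 the last value was 1.68 and passed the thresholds. The sum mixed transcripts that behaved differently.

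Rheb-202, a retained-intron transcript of 522 bases, held 57.6% and 75.9% of the gene's FPKM in unstimulated cells and 78.9% in control replicate 1, but 0 in control replicate 2 and 1.37% and 18% in SMF-treated cells. The only full-length coding transcript, Rheb-201, was at 2.94 and 1.04 FPKM in unstimulated, 2.57 and 4.54 FPKM in control, and 21 and 12.4 FPKM in SMF-treated cells. For this transcript both SMF libraries lay above the other 4, while unstimulated and control libraries overlapped. Depth was thin here too, with 2203 and 2042 read bases over the gene in unstimulated and 1786 and 3116 in control cells. SMF-treated cells had 12393 and 12571, and the part of depth in the split between transcripts was not tested. On full-length coding transcripts Rheb rose 6.06-fold in SMF-treated against unstimulated cells (log2 fold change 2.6, SE 0.54, limma adjusted p = 0.022), or 1.89 above the median of all genes. It was 3.86-fold higher than in control cells (1.95, SE 0.54, unadjusted p = 0.0114, adjusted p = 0.145), or 1.32 above that median, and control against unstimulated cells gave 0.65 (SE 0.54, adjusted p = 0.49). The level along its exons without the one with the most read bases on average (exon 2) showed the same order, at 5.55 and 3.87 in unstimulated, 8.1 and 5.47 in control, and 17.2 and 15.2 in SMF-treated cells, of which 0.60 and 0.36 on the log2 scale lay above the median of all genes over unstimulated and control cells.

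The promoter of Rheb is shown because its coding transcript was called higher in SMF-treated cells in both comparisons and because, of the 13 RefSeq windows of the 9 genes, it alone holds the E-box CACGTG, in capitals here (GRCm38.p6, chr5:24842312-24842611, minus strand, 5′ to 3′).
Rheb: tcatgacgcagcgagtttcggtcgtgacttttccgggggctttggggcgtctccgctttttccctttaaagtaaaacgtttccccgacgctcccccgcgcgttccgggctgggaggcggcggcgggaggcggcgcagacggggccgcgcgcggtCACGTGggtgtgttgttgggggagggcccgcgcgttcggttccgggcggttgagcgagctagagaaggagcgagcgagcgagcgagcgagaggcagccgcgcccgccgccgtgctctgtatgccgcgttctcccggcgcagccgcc
One window of Akt1, at an upstream start, holds the forkhead core as TGTTTAC, and the other windows of the 9 genes hold neither core. Myc, whose product binds E-boxes, was at 11.1 and 16.5 FPKM in unstimulated, 20.8 and 43.1 FPKM in control, and 30.6 and 36.4 FPKM in SMF-treated cells, and Foxo1 is given with the pathway genes below. The Rheb window lies within the first exon of Rheb-201 in the annotation used, and 7.15% of all 32851 windows hold CACGTG. A match in a window is a description of its letters and shows no binding.

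Counting only full-length coding transcripts, 0 of the 9 genes rose and 1 fell in control cells against unstimulated cells, where 13.9% of the 9437 genes tested in that way rose and 10.3% fell. In SMF-treated cells 2 rose (Mtor and Rheb) and 2 fell (Pik3ip1 and Tsc2, whose last exon belongs to the coding transcript), where 30.5% rose and 9.43% fell. Against control cells 1 was higher (Rheb) and 1 lower (Pik3ip1), where 17.6% were higher and 2.37% lower. The highest exon of a gene means here the one with the most read bases, averaged over the 6 libraries. For Pik3cd, Pik3r1, Mtor, Rptor and Tsc1 this was the last exon, and other exons stood at higher levels in SMF replicate 1. Without the highest exon of each gene, 0 rose and 0 fell in control cells (14.7% and 8.17% of 8239 genes), while 4 rose (Akt1, Mtor, Tsc1 and Rheb) and 1 fell (Pik3ip1) in SMF-treated cells (35.8% and 5.94%). Tsc1 was then at 1.42 and 0.31 in unstimulated, 0.7 and 0.16 in control, and 4.26 and 5.25 in SMF-treated cells. In that form 2 were higher (Tsc1 and Rheb) and 1 lower (Pik3ip1) in SMF-treated than in control cells (20.4% and 1.14%). Both forms were chosen after the values had been seen, and in both the median of all genes lay higher in SMF-treated cells, at 0.71 and 1.01 over unstimulated and 0.63 and 0.80 over control cells. Pik3ip1 kept its direction in every comparison by all 3 measures, whereas Tsc2 did not.

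**Figure D4:**
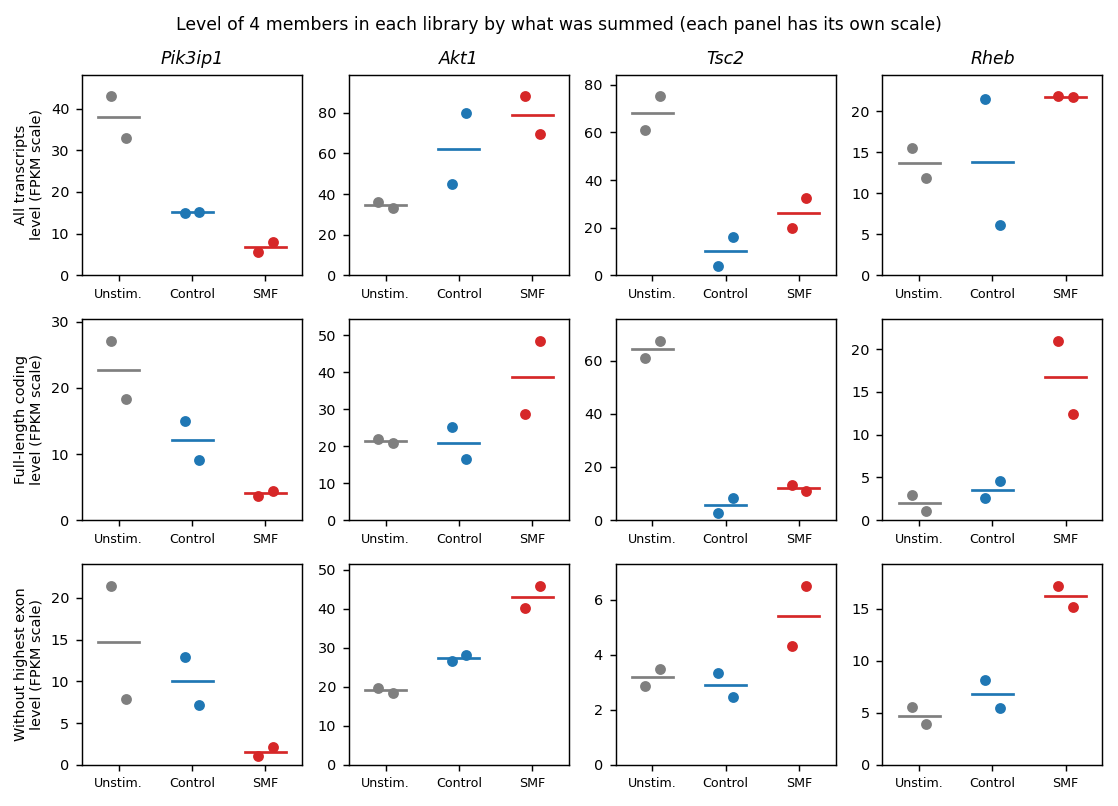
Level on the FPKM scale (vertical axis, from 0, with its own range per panel) of Pik3ip1, Akt1, Tsc2 and Rheb in each library, as the sum of all transcripts, of full-length coding transcripts, and along the exons without the highest one, which is the one with the most read bases. Points are libraries and lines group means; for Tsc2 the unstimulated libraries drop from 61.2 and 75.3 to 2.86 and 3.5 in the bottom row, and for Rheb the SMF libraries stand apart in the lower rows.

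Beyond the 9 genes, 72 further genes of the pathway were found in the files, and 64 passed the filter. In control against unstimulated cells 8 of the 64 rose and 6 fell, where 12.3% and 12.6% of all genes did, with a median log2 fold change of -0.11 beside -0.05 over all genes. In SMF-treated against unstimulated cells 15 rose and 2 fell, where 22.4% and 14.8% of all genes did, with a median of 0.60 beside 0.27. The rises were thus close to the share over all genes. Between SMF-treated and control cells 7 were higher and 0 lower, where 12.5% and 5.72% of all genes were, with a median of 0.60 beside 0.32, and 39 of the 64 lay above the median of all genes. Over the 10042 tested protein-coding genes with several exons, SMF-treated cells had medians near those of the list. These were 0.62 against unstimulated and 0.58 against control cells. No gene of the list had a limma adjusted p under 0.05 in that last comparison, and 7 had an unadjusted p no higher than 0.05. With each library shifted to one median, 1 of the 64 was called higher and 1 lower there, 10 rose and 5 fell in SMF-treated against unstimulated cells, and 8 rose and 5 fell in control cells. Of all 14991 genes, 877 were higher and 1441 lower between SMF-treated and control cells under that shift, 2756 rose and 2694 fell in SMF-treated cells, and 2011 rose and 1685 fell in control cells.

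Of the other PI3K subunits and adaptors, 6 were tested, and Pik3r2, for the regulatory subunit p85 beta, changed most. It was at 99.3 and 56.6 FPKM in unstimulated, 3.71 and 5.31 FPKM in control, and 12.1 and 7.51 FPKM in SMF-treated cells, so that the unstimulated libraries stood apart. It fell in control (log2 fold change -3.80, SE 0.45, limma adjusted p = 0.0127) and in SMF-treated cells (-2.85, SE 0.45, adjusted p = 0.0107), and the calls held on coding transcripts and without its highest exon. Pik3r5, the regulatory subunit of PI3K gamma, fell in control cells from 11.1 and 20.7 to 5.72 and 5.52 FPKM (-1.29, SE 0.45, adjusted p = 0.13).

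Of the 5 AKT kinases and regulators tested, Akt2 rose in SMF-treated against unstimulated cells, from 2.27 and 11.1 FPKM to 28.7 and 23.4 FPKM (log2 fold change 2.1, SE 0.75, limma adjusted p = 0.0917). It was at 4.65 and 13.2 FPKM in control cells, and SMF-treated against control cells was not called (1.59, SE 0.75, limma adjusted p = 0.285). Pdpk1, the kinase that phosphorylates the activation loop of AKT, was at 12.8 and 26.8 FPKM in unstimulated, 17.4 and 10.0 FPKM in control, and 15.9 and 20.3 FPKM in SMF-treated cells, and was not called. Of the 7 mTOR complex genes tested, Mlst8, a subunit of both complexes, rose in SMF-treated cells, from 2.91 and 2.26 to 8.67 and 10.8 FPKM (1.58, SE 0.45, adjusted p = 0.0513), and was at 4.64 and 6.37 FPKM in control cells. Rictor, the defining subunit of mTOR complex 2, fell in control cells, from 7.52 and 7.57 to 3.35 and 2.15 FPKM (-1.21, SE 0.45, adjusted p = 0.153), and was at 5.71 and 6.04 FPKM in SMF-treated cells. Called besides were Tti1, an assembly factor with a mean of 4.88 FPKM, and Rhebl1, a relative of Rheb with a mean of 2.97 FPKM, both under the limit of 5 FPKM set for giving values.

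Of the 21 genes tested for amino acid sensing at the lysosome, where mTOR complex 1 is switched on, 6 rose in SMF-treated cells, beside 22.4% of all genes, and 3 rose and 2 fell in control cells, beside 12.3% and 12.6%. The Rag GTPase gene Rraga was at 2.18 and 4.67 FPKM in unstimulated, 7.51 and 10.5 FPKM in control, and 16.1 and 15.8 FPKM in SMF-treated cells, with no overlap, and rose in control (log2 fold change 1.22, limma adjusted p = 0.162) and SMF-treated cells (log2 fold change 2, adjusted p = 0.0299). Its partner Rragc was at 1.78 and 4.49 FPKM in unstimulated, 2.73 and 7.53 FPKM in control, and 15.7 and 18.6 FPKM in SMF-treated cells, and with SMF it exceeded unstimulated (2.21, adjusted p = 0.0451) and control cells (1.68, adjusted p = 0.205). The Ragulator gene Lamtor5 rose from 0 and 3.32 FPKM to 5.88 and 12 FPKM in control and 31.8 and 22.4 FPKM in SMF-treated cells (2.19, adjusted p = 0.138, and 3.74, adjusted p = 0.0214). Lamtor4, of the same complex, fell in control cells instead, from 53.6 and 44.8 to 18.7 and 5.42 FPKM (-2.15, adjusted p = 0.068).

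Among the GATOR complexes, which set the state of the Rag GTPases, Seh1l and Sec13 rose in SMF-treated cells. Seh1l went from 8.31 and 6.66 to 20.2 and 18.0 FPKM (log2 fold change 1.25, limma adjusted p = 0.0584) and Sec13 from 51.6 and 30.7 to 110 and 78.1 FPKM (1.20, adjusted p = 0.0571). Control cells were at 8.95 and 11.5 FPKM for Seh1l and at 36.7 and 39.6 FPKM for Sec13, and SMF-treated cells exceeded them for Sec13 (1.26, adjusted p = 0.168). Both proteins also belong to the nuclear pore, and SEC13 to the coat of transport vesicles. With each library shifted to one median, neither was called any more. Nprl2 fell in control cells, from 10.3 and 18.6 to 0 and 3.90 FPKM (-2.75, adjusted p = 0.0945), and Wdr24 rose there, from 0.66 and 3.21 to 11.2 and 5.15 FPKM (1.71, adjusted p = 0.167). Of the other genes for amino acid sensing, Fnip1 and Kptn were called higher with SMF than in control cells, at means of 3.33 and 4.39 FPKM over the 6 libraries. Fnip1 was also called higher with SMF than in unstimulated cells.

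Of the 8 genes of stress and energy inputs, which restrain mTOR complex 1, 2 rose in both stimulated groups, where 12.3% of all genes rose in control and 22.4% in SMF-treated cells. Ddit4, also called REDD1, was at 14.2 and 15.6 FPKM in unstimulated, 56.8 and 35.1 FPKM in control, and 34.8 and 45.6 FPKM in SMF-treated cells (log2 fold change 1.52 and 1.36, limma adjusted p = 0.0553 and 0.0416). Prkag1, a regulatory subunit of AMP-activated kinase, was at 9.58 and 14.4 FPKM in unstimulated, 38.9 and 41.5 FPKM in control, and 53.7 and 43.4 FPKM in SMF-treated cells (1.69 and 1.95, adjusted p = 0.0352 and 0.0132). In both genes every stimulated library lay above both unstimulated libraries, and only for Ddit4 did control and SMF-treated libraries overlap.

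Of the 12 targets and further downstream genes of AKT and mTOR complex 1, 3 rose in SMF-treated cells and 2 of these in control cells. The shares over all genes were 22.4% and 12.3%. Eif4ebp1, for the repressor that mTOR complex 1 inactivates, was at 0 and 1.16 FPKM in unstimulated, 9.02 and 11.6 FPKM in control, and 5.97 and 13.2 FPKM in SMF-treated cells (log2 fold change 2.94 and 2.76, limma adjusted p = 0.0419 and 0.0271). Eif4e, for the cap-binding factor that this repressor holds, was at 18.9 and 5.73 FPKM in unstimulated, 46.8 and 34.9 FPKM in control, and 129 and 74.7 FPKM in SMF-treated cells (1.84 and 3.10, adjusted p = 0.105 and 0.0162). Rps6, for ribosomal protein S6, was at 360 and 515 FPKM in unstimulated, 390 and 431 FPKM in control, and 900 and 902 FPKM in SMF-treated cells, and SMF-treated cells exceeded unstimulated (1.06, SE 0.23, adjusted p = 0.0253) and control cells (1.13, SE 0.23, unadjusted p = 0.00263, adjusted p = 0.138). Pseudogene copies of Rps6 can share its reads, and both calls ended when libraries were shifted to one median.

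Eif4ebp2 exceeded control cells in SMF-treated cells, at 30.6 and 21.6 against 9.52 and 12.6 FPKM (log2 fold change 1.16, limma adjusted p = 0.18), a call that ended under the same shift and without its highest exon. Foxo1, the factor that AKT keeps out of the nucleus, fell in SMF-treated cells, from 9.74 and 10.5 to 2.78 and 5.54 FPKM (-1.16, SE 0.48, adjusted p = 0.127), and was at 4.27 and 4.48 FPKM in control cells. Rps6kb1, the kinase of ribosomal protein S6, was at 24.3 and 13.5 FPKM in unstimulated, 14.2 and 10.4 FPKM in control, and 19.1 and 19.4 FPKM in SMF-treated cells, and was not called.

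**Figure D5:**
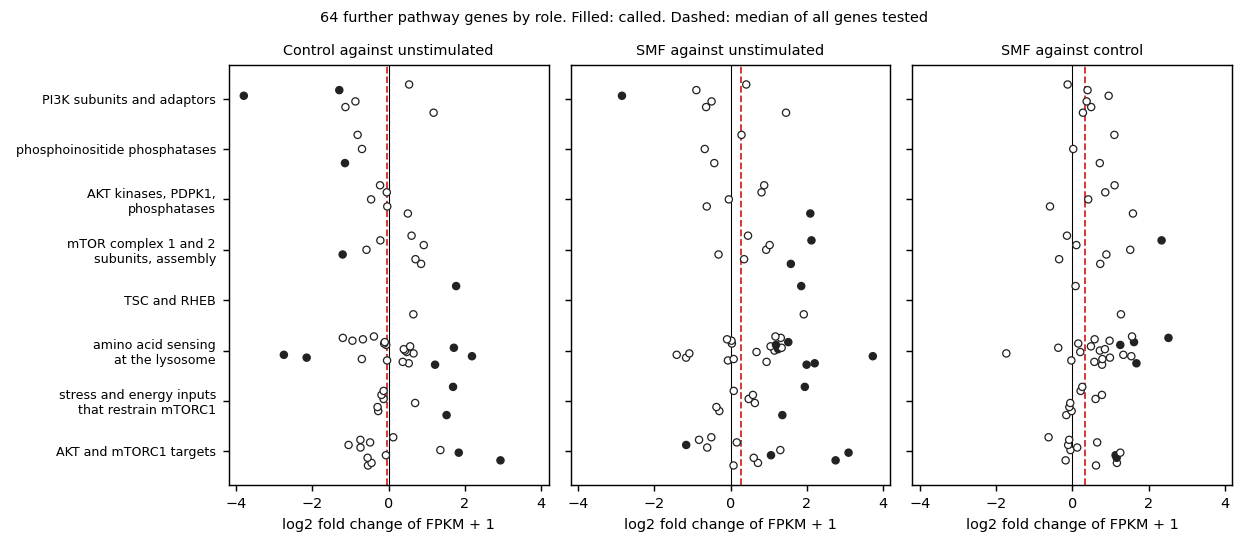
Log2 fold change of FPKM + 1 (horizontal axis) of the 64 further pathway genes tested, in rows by role, in the 3 comparisons. Filled points passed the 2-fold and p thresholds and the dashed line is the median of all genes tested; the filled points lie on both sides for control cells and mainly to the right for SMF-treated cells, with Pik3r2 far to the left in the first 2 panels.

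The genes whose pattern over the 6 libraries was most like a member's were found by the root mean square difference in centred log2(FPKM + 1) among protein-coding genes that averaged 5 FPKM or more. For Pik3ip1 these were Cmc1 (0.09), Elmo3 (0.14) and Lipt1 (0.14). Cmc1 went from 111 and 93.4 FPKM in unstimulated to 43.1 and 39.8 FPKM in control and 14.4 and 23.9 FPKM in SMF-treated cells. For Akt1 they were Gatad2a (0.09), Terf1 (0.12) and Ercc2 (0.12), and for Mtor they were Glud1 (0.12), Fas (0.13) and Ubb (0.13). With 6 libraries and 6922 or 6923 candidates, such a likeness describes these values and no more.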

How the data were processed

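Total RNA of the 6 libraries was prepared with the SMARTer Stranded Pico Input kit. Per the labels the authors used Trimmomatic 0.36, HISAT2 and StringTie, and per the file headers StringTie 1.3.5 quantified GENCODE M19 transcripts on GRCm38, annotated transcripts only, with strand. The deposited files hold 3 values for each of 137767 transcripts: coverage, FPKM and TPM, of which the authors' runs scaled the last 2 for depth and length. In a further gene table, 3 FPKM columns fit no sample's labels and stayed unused. Numbers of reads cannot be had from these values, so counting intervals are left out, and 0 means listed at 0.

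FPKM was summed per gene identifier. With limma 3.58.1 in R 4.3.3, log2(FPKM + 1) was fitted on the 3 groups together with a variance trend (3 residual degrees of freedom), and p was adjusted over all genes tested; the call thresholds are those of the study. An exact permutation test of 2 against 2 libraries cannot go below p = 0.333. Exon levels are coverage put on each library's FPKM scale along the longest full-length coding transcript, summed over the gene's transcripts. A gene's highest exon is the one with the most read bases, averaged over the libraries. Types come from GENCODE M21, and promoter sequences from RefSeq, where 9 of 9 genes matched. The fit was tested on simulated data. Positions are in GRCm38.

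The genes, lists, tests and alternatives were chosen with earlier results of these data known. The values given cover all 9 genes and, of the further pathway genes, those called with a mean of at least 5 FPKM plus Pdpk1, Rictor, Mlst8, Rps6kb1 and Eif4ebp1. Of 75 pathway symbols, 72 matched, and Rragb, Sesn2 and Prkaa2 were not analysed here; nor were Cd14, Hba-a2, Hbb-bs and Hbb-bt among the markers. Other marker sums were 2.05 and 4.68 FPKM for Cd4 in unstimulated and 0 to 2.18 FPKM in stimulated cells. For NK cells (Ncr1, Klrb1c) they were 13.8 and 7.66 FPKM in unstimulated cells and 0 in every stimulated library. Erythroid cells (Hba-a1, Alas2) gave 18.3 and 19.1 FPKM in unstimulated and 1.51 to 10.1 FPKM in stimulated cells. For activation (Il2ra, Gzmb, Ifng, Mki67, Myc) the sums were 58.8 and 49.4 FPKM in unstimulated and 1902 to 4827 FPKM in stimulated cells. Some genes of these lists are not reported here by name.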

Additional observations from a re-analysis of the deposited data

How the results depend on the processing

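Against 2, 3 and 2 of the 9 genes called (control over unstimulated, SMF over unstimulated, SMF over control) and 14, 17 and 7 of the further pathway genes, an adjusted p under 0.05 in limma gave 1, 1 and 0, and 3, 9 and 0. SMF over control gave 1 of the 9 genes with a pseudocount of 0.1 or 5, no filter, the median shift, scaling to protein-coding genes with several exons, TPM, or only the 2 groups in the fit. For the pathway genes, control over unstimulated gave 8 with a pseudocount of 5 or only the 2 groups, and SMF over control gave 2 under both scalings and 4 at a mean of at least 5 FPKM. Of the forms chosen after seeing the data, full-length coding transcripts gave 1 of the 9 in control cells, and leaving out the highest exon gave 0 there, 5 for SMF over unstimulated and 3 for SMF over control, and 8 pathway genes in control cells. Leaving out each library gave 2 to 4, 1 to 4 and 0 to 2 of the 9 genes, and 7 to 10, 10 to 18 and 3 to 11 pathway genes. With a lone library in a group, its spread was taken from the other groups.

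No log2 fold change that was called by the main rule, on sums over all transcripts, turned its sign. For control over unstimulated, those that did were Akt1 (-0.057, coding transcripts), Rptor (0.077 under the median shift, 0.27 on coding transcripts, 0.16 without the highest exon, -0.27 to 0.25 leaving out a library) and Rheb (0.65, 0.44 and -1.03 to 0.63 in the last 3 forms). For SMF over unstimulated they were Pik3cd (0.27 without the highest exon, -0.054 to 0.041 leaving out a library), Tsc1 (0.33 on coding transcripts, 1.69 without the highest exon, -0.76 to 0.64) and Tsc2 (0.60 without the highest exon). For SMF over control, leaving out a library gave -0.52 to 0.26 for Pik3r1 and -0.022 to 0.80 for Akt1. The cause was not tested.

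Replicate numbers were not shown to pair the libraries: deviations from the group means correlated at 0.10, 0.03 and 0.02. With the replicate number as a block, 2, 4 and 2 of the 9 genes and 12, 14 and 10 pathway genes were called. Depth limits Mtor, Rptor and Tsc1 most, and Rheb also had few read bases outside the SMF-treated cells.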
